A study of Homo sapiens with 16 samples.

Results

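Knockdown of the forkhead factors FOXF1 and FOXF2 was set directly against knockdown of the JUN family in senescent human fibroblasts, over the open chromatin regions of 4 ATAC-seq libraries of a series of 16. Peaks on chromosomes 1 to 22 of the 4 deposited lists were merged wherever they overlapped by at least 1 bp, which gave 124615 regions. A region was called siFOXF1/2-only when both siFOXF1/2 lists and neither JUN-family list held a peak in it, JUN-family-only in the reverse case, shared when all 4 lists held one, and mixed otherwise. By this rule 37079 regions were siFOXF1/2-only, 4868 were JUN-family-only, 43724 were shared and 38944 were mixed.

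FOXF1 and FOXF2 are transcription factors of the forkhead family, whose members bind DNA through a winged-helix domain, and they are known for their role in the mesenchyme of the developing lung. c-JUN, JUNB and JUND are the JUN subunits of AP-1, a dimeric factor that binds enhancers, and AP-1 is known to occupy much of the enhancer landscape of fibroblasts in oncogene-induced senescence. ATAC-seq uses a transposase to insert sequencing adapters into open DNA, so a peak marks a stretch that was accessible in many cells of the culture. In such bulk samples, fewer cells with an open region and less opening per cell cannot be told apart.

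All libraries came from IMR-90 ER:Ras cells, an established lung fibroblast line carrying oncogenic Ras fused to an oestrogen receptor. The siFOXF1/2 group was transfected with siRNA against FOXF1 and FOXF2 and treated with 100 nM 4-hydroxytamoxifen for 6 days to switch Ras on (2 libraries). The JUN-family group had the same senescence treatment and siRNA against c-JUN, JUNB and JUND by its treatment label, while its title names c-JUN and JUND only (2 libraries). Senescent controls (Sen) had the same treatment with control siRNA (4 paired-end and 2 single-end libraries), and further single-end senescent libraries had siRNA against p300 and CBP, which are histone acetyltransferases, or against the NF-kB subunit p65 (2 each). Proliferating cells (Pro, 2 paired-end libraries) had no 4-hydroxytamoxifen, although their cell type label also reads senescent. The labels do not say whether replicates came from separate cultures, and p-values measure only the spread between these libraries, which may be technical. Peak lists hold no transcript levels, so the loss of FOXF1, FOXF2 or the JUN proteins was not checked here.

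Peak names within the lists follow separate styles: the siFOXF1/2, Pro and Sen 1 and 2 lists share one, and the JUN-family and Sen 3 and 4 lists share another. The direct contrast between the knockdowns therefore coincides with these naming sets, and the knockdown and the set cannot be told apart in it. Sen 1 and 2 against Sen 3 and 4, treated alike by their labels, are given beside the results as the difference between the sets without either knockdown.

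The siFOXF1/2 lists held 105828 and 100125 peaks and the JUN-family lists 61426 and 58955. Both siFOXF1/2 lists were longer than both JUN-family lists, with means of 102976 ± 4033 and 60190.5 ± 1747 peaks (SD, n = 2 each), a ratio of 1.71. The two-sided exact permutation p was 0.333, the smallest that 2 libraries against 2 can give. The siFOXF1/2 lists were close in length to Sen 1 and 2 of their own naming set, which held 99387 and 100656 peaks. The JUN-family lists were shorter than Sen 3 and 4 of theirs, which held 96512 and 99432. The Pro lists, at 63860 and 64904 peaks, were nearer in length to the JUN-family lists.

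Peaks of the siFOXF1/2 lists were also wider. They covered 58.5 and 53.2 Mb in the siFOXF1/2 lists, against 25.7 and 23.5 Mb in the JUN-family lists, and their median width was 471 and 450 bp, against 321 and 308 bp. The authors' fold enrichment, which is the summit pileup over the local background, had a median of 10.0 and 9.91 in the siFOXF1/2 lists and 7.85 and 8.53 in the JUN-family lists. The lists give no read totals, and depth was judged from the genome-wide background coverage recovered from the deposited values. It was 2.61 and 1.93 fragments in the siFOXF1/2 libraries and 3.08 and 2.01 in the JUN-family libraries (two-sided exact permutation p = 0.667). The values of the 2 groups overlapped, and the part of depth in the list lengths was not tested.

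The siFOXF1/2-only class made up 29.8% of all regions and the JUN-family-only class 3.91%. By the same rule, 4.39% of 122366 regions of the Sen lists were held by both Sen 1 and 2 and neither Sen 3 and 4, and 3.22% were held in the reverse way. The siFOXF1/2-only share lay above both of these control levels, and the JUN-family-only share lay between them. The Sen lists were near each other in length, at 96512 to 100656 peaks, and the knockdown lists were not. The control levels therefore do not cover a difference in list length, which bears on both shares. No control level is given for lists of equal length. Presence in a list is a threshold, so these counts carry no test.

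The excess of siFOXF1/2-only regions depended on how the lists were made comparable. Of the 41947 one-knockdown regions, 88.4% were siFOXF1/2-only. When every list was cut to its 58955 peaks of highest −log10 q, there were 11987 siFOXF1/2-only and 10990 JUN-family-only regions, a siFOXF1/2-only portion of 52.2%. The larger JUN-family-only count includes regions whose siFOXF1/2 peaks were cut from the list. A further alternative kept only regions whose summit pileup exceeded the detection floor of the other knockdown's lists by at least 2-fold. It left 29098 siFOXF1/2-only and 2843 JUN-family-only regions when libraries were scaled by their background. Scaled on the shared regions, it left 11286 siFOXF1/2-only and 4868 JUN-family-only regions, a siFOXF1/2-only portion of 69.9%. With the floor set at each region's local background and the same scaling, 2356 siFOXF1/2-only and 4856 JUN-family-only regions remained, a portion of 32.7%. Shared regions themselves had a higher summit in the siFOXF1/2 libraries, where the median pileup was 47.4 and 48.8 times background, against 20.5 and 24.4 times in the JUN-family libraries. Leaving out JUN-family library 2 moved the JUN-family-only count to 8143.

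**Figure D1:**
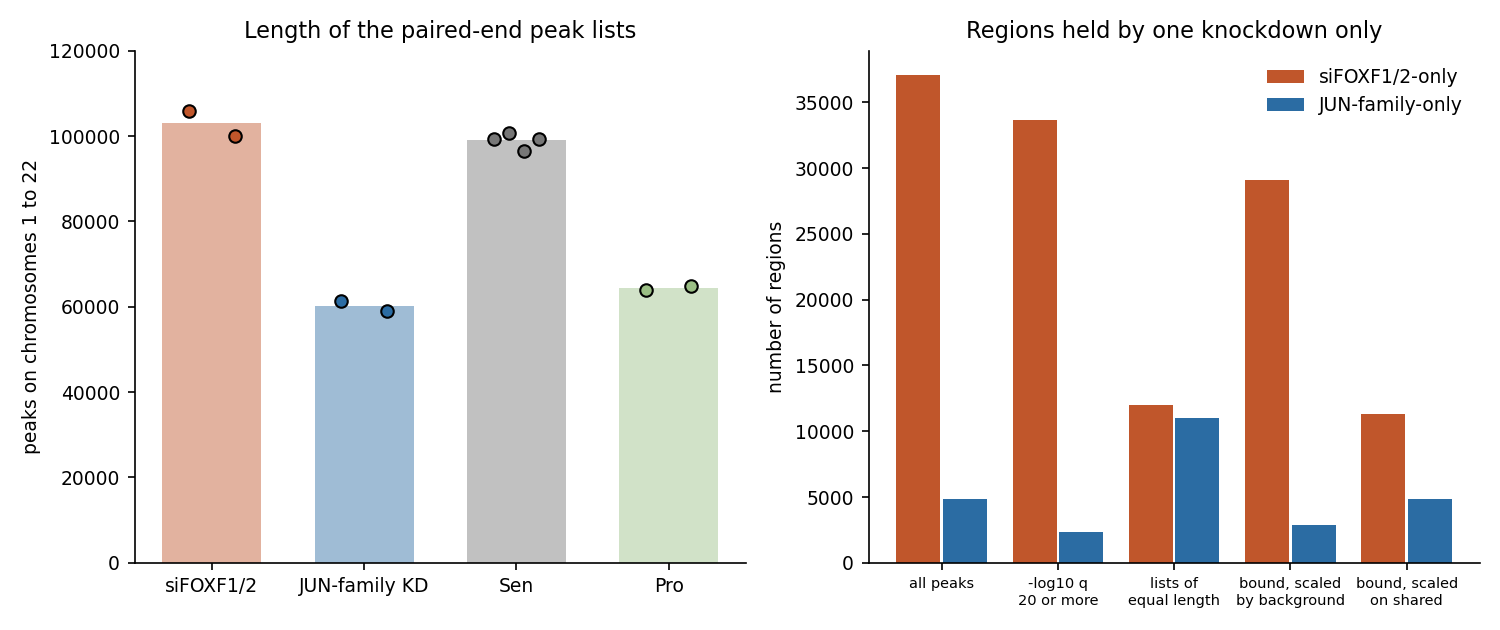
Left, peaks on chromosomes 1 to 22 in each paired-end list (points) with the group mean (bars). Right, siFOXF1/2-only and JUN-family-only regions with all peaks and under 4 alternatives. The siFOXF1/2 lists stand beside the Sen lists and the JUN-family lists beside the Pro lists, and the class counts are nearly level at 11987 and 10990 when lists are of equal length.

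The classes differed in form. siFOXF1/2-only regions had a median width of 457 bp and JUN-family-only regions 267 bp, against 712 bp for shared regions. The lower −log10 q of the 2 holding lists had a median of 23.7 in siFOXF1/2-only and 15.5 in JUN-family-only regions. A siFOXF1/2-only region lay a median of 14.4 kb from the nearest shared region, and a JUN-family-only region 12.0 kb. The nearest peak of the other knockdown was within 1 kb for 6.17% of siFOXF1/2-only and 13.5% of JUN-family-only regions.

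The Sen lists were not used to choose the regions, but each Sen pair shares its naming set with 1 of the knockdowns. Their lengths, 96512 to 100656 peaks, were also nearer to those of the siFOXF1/2 lists than of the JUN-family lists. The part of list length and region width in these shares was not tested beyond lists of equal length. Of the siFOXF1/2-only regions, 43.5% were held by all 4 Sen lists (95% Wilson interval 43.0% to 44.0%) and 21.2% by none. Of the JUN-family-only regions, 17.9% were held by all 4 Sen lists (interval 16.8% to 19.0%) and 45.8% by none. With lists of equal length the shares in all 4 Sen lists were 64.7% of siFOXF1/2-only and 44.996% of JUN-family-only regions. Shared regions were held by all 4 Sen lists in 94.1% of cases. These intervals, here and below, cover counting error over regions only.

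Part of the contrast followed the naming sets. The siFOXF1/2-only regions were held in 66.7% and 67.6% of cases by Sen 1 and 2 and in 57.6% and 55.5% by Sen 3 and 4. The JUN-family-only regions were held in 30.4% and 21.3% of cases by Sen 1 and 2 and in 46.0% and 47.4% by Sen 3 and 4. Each class was therefore held more often by the controls that share its naming style. Both Sen 3 and 4 and neither Sen 1 and 2 held 599 JUN-family-only regions (12.3%), and both Sen 1 and 2 and neither Sen 3 and 4 held 2396 siFOXF1/2-only regions (6.46%). Counted against the controls of the other set, 17983 siFOXF1/2-only regions were held by both Sen 3 and 4, which makes them open in those senescent controls and unlisted after JUN-family knockdown. In the reverse case 923 JUN-family-only regions were held by both Sen 1 and 2.

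The Pro lists showed the opposite order of the classes. Both Pro lists held 17.8% of the siFOXF1/2-only and 27.1% of the JUN-family-only regions. Single Pro lists held 23.3% and 25.3% of siFOXF1/2-only regions and 32.7% and 33.2% of JUN-family-only regions, although Pro shares its naming style with siFOXF1/2. Among regions that no Sen list held, at least 1 Pro list held 8.48% of the 7865 siFOXF1/2-only regions and 27.1% of the 2230 JUN-family-only regions. The ratio of siFOXF1/2-only to JUN-family-only shares was 2.19, 3.17, 1.25 and 1.17 in Sen 1 to 4, against 0.712 and 0.763 in the Pro lists. The groups did not overlap (two-sided exact permutation p = 0.133, the smallest that 4 against 2 allows). The Pro lists were also shorter, at 63860 and 64904 peaks, against 96512 to 100656 in Sen. The part of list length in these shares was not tested.

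**Figure D2:**
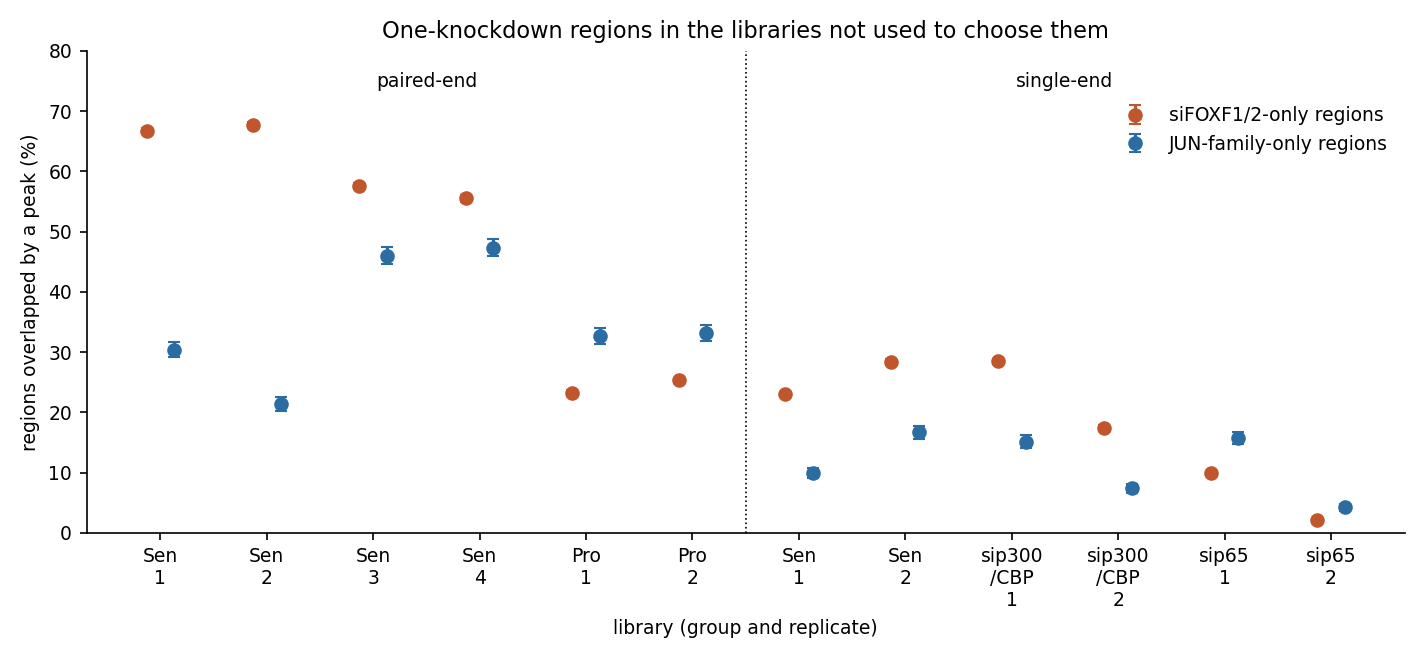
Share of siFOXF1/2-only and JUN-family-only regions (%) overlapped by a peak in each of the 12 libraries not used to choose them, with 95% Wilson intervals. siFOXF1/2-only regions are the more often held class in the Sen and sip300/CBP libraries, and JUN-family-only regions in the Pro and sip65 libraries.

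The strength of a peak changed these shares in the siFOXF1/2-only class. In its weakest decile, 19.5% of regions were in all 4 Sen lists and 36.2% in none, and in its strongest decile 81.9% were in all and 4.34% in none. In the JUN-family-only class 16.0% of the weakest and 19.96% of the strongest decile were in all 4 Sen lists. Its share in no Sen list was 52.6% in the weakest and 26.8% in the strongest decile. The share in both Pro lists was higher in the strongest decile of both classes, at 33.5% of siFOXF1/2-only and 41.2% of JUN-family-only regions, against 9.95% and 19.9% in the weakest.

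**Figure D3:**
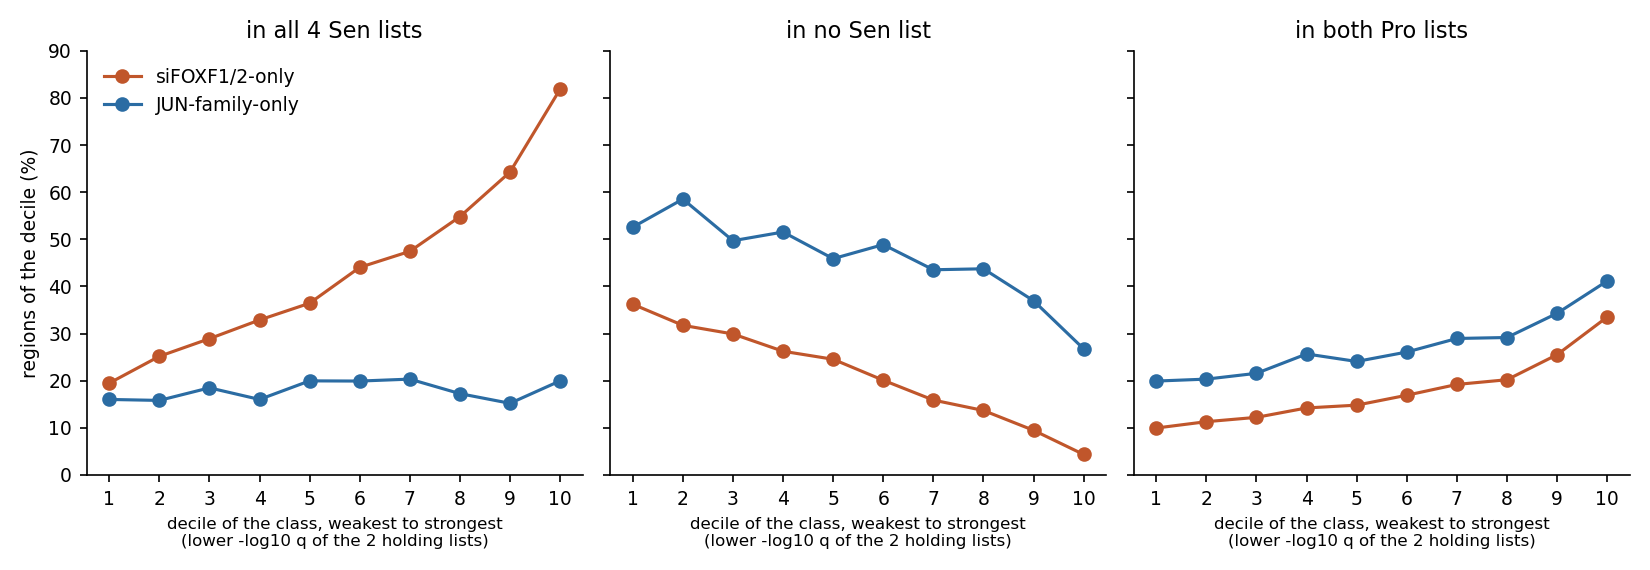
Share of regions (%) in all 4 Sen lists, in no Sen list and in both Pro lists, by decile of each class in order of the lower −log10 q of its 2 holding lists. The siFOXF1/2-only line climbs to 81.9% in all 4 Sen lists, while the JUN-family-only line stays between 15.2% and 20.3%.

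Of the 8 strongest siFOXF1/2-only regions, all 8 were held by all 4 Sen lists and 5 by both Pro lists. The strongest, chr1:145042509-145043268 (hg19), had a fold enrichment of 10.3 and 10.2 in the siFOXF1/2 libraries and no listed peak in the JUN-family libraries. It stood at 9.21, 9.09, 7.13 and 7.99 in Sen 1 to 4 and was in neither Pro list. Its local background was 16.6 and 16.3 times the genome-wide level, and 4 of the 8 had a local background of 5 times or more, where a summit must be higher to be listed.

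chr3:110965641-110966374 lay in a less dense neighbourhood, with a local background of 3.33 and 3.14 times the genome-wide level. Its fold enrichment was 19.4 and 21.4 in the siFOXF1/2 libraries, and the JUN-family lists held no peak there. In Sen 1 to 4 it was 18.2, 19.6, 16.4 and 17.8, close to the siFOXF1/2 values, and in Pro 12.4 and 10.8. chr5:150849883-150850472 behaved alike, at 19.7 and 19.6 in the siFOXF1/2 libraries, 17.4 to 18.8 in the 4 Sen libraries and 9.53 and 10.5 in Pro. At chr6:167324074-167324818 the siFOXF1/2 values of 16.7 and 16.5 lay above all 4 Sen values, which ran from 7.87 to 9.97, and neither Pro list held the region. Over the 8 regions, the siFOXF1/2 summit pileup was at least 4.99-fold to 7.17-fold higher than the floor of the JUN-family lists at the region's local background, scaled by background. Scaled on shared regions the bound was 2.47-fold to 3.53-fold.

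The 8 strongest JUN-family-only regions were of another kind. All 4 Sen lists held 1 of them, both Sen 3 and 4 and neither Sen 1 and 2 held 4, and both Pro lists held 4. The strongest, chr2:230045484-230045637, was 154 bp wide with a fold enrichment of 35.3 and 38.1 in the JUN-family libraries and no listed peak in the siFOXF1/2 libraries. Among the Sen libraries it was listed in Sen 4, at 43.7, and all 6 single-end lists held it. chr6:133593973-133594128 was 156 bp wide and showed 29.8 and 34.8 in the JUN-family libraries, with no listed peak after siFOXF1/2. It stood at 33.0 and 35.5 in Sen 3 and 4, was in neither Sen 1 and 2 nor Pro, and was again in all 6 single-end lists. Such a region separated the naming sets in their controls as it did in the knockdowns.

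chr21:9698817-9699654 was the region of the 8 that all 4 Sen lists held. It had a fold enrichment of 24.4 and 24.4 in the JUN-family libraries and no listed peak in the siFOXF1/2 libraries. The Sen values were 7.17 and 7.14 in Sen 1 and 2 and 18.7 and 24.04 in Sen 3 and 4, and the Pro values 15.5 and 12.4. chr3:29274679-29274928 had 22.2 and 21.9 in the JUN-family libraries, was absent from siFOXF1/2 and from Sen 1 and 2, and stood at 19.2 and 21.6 in Sen 3 and 4 and at 29.7 and 24.9 in Pro. Of the 8 regions, 3 had a local background of 5 times or more. Over the 8, the JUN-family summit pileup was at least 3.16-fold to 11.3-fold higher than the floor of the siFOXF1/2 lists at that background, scaled by background. Scaled on shared regions the bound was 6.58-fold to 27.0-fold. Sequence was not analysed here. The part of repeated sequence, and of where short reads were placed in it, was therefore not tested for the strongest regions of either class.

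Other one-knockdown regions were in no Sen list, and those described here were chosen after their values were seen, from the strongest of their kind. chr10:106006474-106007234 had a fold enrichment of 18.1 and 17.0 in the siFOXF1/2 libraries and no listed peak in the JUN-family, Sen or Pro libraries or in any single-end list. On the other side, chr1:80883371-80883688 had 19.4 and 22.2 in the JUN-family libraries and was in no other list of the series. chr5:31066534-31067066 had 17.4 and 17.1 in the JUN-family libraries and no listed peak after siFOXF1/2 or in Sen, and stood at 15.8 and 14.6 in the Pro libraries.

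Both classes were spread over the genome. siFOXF1/2-only regions were 23.6% of regions on chromosome 19, the lowest share, and 31.2% on chromosome 20, the highest. JUN-family-only regions ran from 2.35% on chromosome 19 to 5.43% on chromosome 21. Among 4817 windows of 500 kb, 4312 held more siFOXF1/2-only and 164 held more JUN-family-only regions. This tally largely restates the class sizes of 37079 and 4868 and does not show where the classes lie. The window richest in siFOXF1/2-only regions, chr1:209500001-210000000, had 30 of them among 51 regions, no JUN-family-only region and 12 shared ones. Of those 30, 16 were in all 4 Sen lists and 20 in neither Pro list. Over the whole siFOXF1/2-only class these shares were 43.5% and 69.2%, so the Pro count is near the class level. chr1:6000001-6500000 followed with 28 of 52 regions, of which 23 were in neither Pro list.

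The window richest in JUN-family-only regions, chr21:28500001-29000000, had 9 of them among 42 regions, beside 5 siFOXF1/2-only ones. Both Pro lists held 5 of the 9, and all 4 Sen lists held 2. In chr4:136000001-136500000, 7 of 12 regions were JUN-family-only, and no Sen list held 6 of the 7. In chr5:125500001-126000000, 7 of 32 regions were JUN-family-only, no Sen list held any of the 7, and 6 of them were in neither Pro list. Over the whole JUN-family-only class, 17.9% were in all 4 Sen lists and 45.8% in none. Both Pro lists held 27.1% of the class, and neither held 61.3%. The median window had 8 siFOXF1/2-only regions and 1 JUN-family-only region.

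The single-end libraries add a pair of other knockdowns that are independent of the rule. The sip65 lists held 9.97% and 2.07% of siFOXF1/2-only regions and 15.8% and 4.21% of JUN-family-only regions. The single-end Sen lists held 22.99% and 28.4% of siFOXF1/2-only and 9.88% and 16.7% of JUN-family-only regions. The ratio of the siFOXF1/2-only to the JUN-family-only share was 0.632 and 0.492 in the sip65 libraries, against 2.33 and 1.70 in single-end Sen. The groups did not overlap (two-sided exact permutation p = 0.333, the smallest that 2 against 2 can give). In the sip300/CBP libraries the ratio was 1.88 and 2.37 and overlapped that of Sen (two-sided exact permutation p = 0.667). The sip65 lists were also short, at 43377 and 17707 peaks, against 53719 and 66524 in single-end Sen, and the part of list length in these shares was not tested.

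Followed from the regions that both single-end Sen lists held, neither sip65 list held 62.8% of 6479 siFOXF1/2-only regions and 35.0% of 357 JUN-family-only regions (intervals 61.7% to 64.0% and 30.3% to 40.1%). For shared regions this was 13.4%. Neither sip300/CBP list held 26.7% of the siFOXF1/2-only and 44.3% of the JUN-family-only regions, the opposite order. Both sip300/CBP lists also held 1002 of 24517 siFOXF1/2-only and 99 of 3933 JUN-family-only regions that neither single-end Sen list held. Over all JUN-family-only regions the sip300/CBP lists held 15.1% and 7.37%, which overlaps the single-end Sen shares. The part of peak strength and region width in these orders was not tested.

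At the 43724 shared regions the knockdowns were compared by the rank of the authors' fold enrichment within each library, which drops its scale. Which regions are shared still depends on the lists, and the JUN-family lists were the shorter ones. Ranks were turned into normal scores, on which a difference of 1 is about 1 SD of the regions in a library, and tested with limma, adjusted over all shared regions by the Benjamini-Hochberg method. At an adjusted p under 0.05, 7714 regions (17.6%) ranked higher and 8085 (18.5%) lower after siFOXF1/2 than after JUN-family knockdown. Among regions held in all 8 paired-end senescent lists, siFOXF1/2 against JUN-family knockdown gave 8360 higher (20.3%) and 9302 lower (22.6%), and Sen 1 and 2 against Sen 3 and 4 gave 187 higher (0.455%) and 76 lower (0.185%). The Sen contrast nevertheless had 8232 of the 41130 regions at an unadjusted p under 0.05 in limma. The mean score of the regions called higher minus that of the regions called lower, over 37285 regions also held by both Pro lists, was 0.65 and 0.78 in Sen 1 and 2 and 0.10 and −0.10 in Sen 3 and 4. In the siFOXF1/2 libraries it was 1.16 and 1.17 and in the JUN-family libraries −1.30 and −1.16, by the choice of these regions, and Sen 1 and 2 thus lay nearer siFOXF1/2 than Sen 3 and 4 did. A shared region moved by a median of 15.3 percentile points between the knockdowns, against 5.63 points between the siFOXF1/2 replicates and 7.45 points between the JUN-family replicates. Without siFOXF1/2 library 1 the counts were 4904 higher and 4256 lower, and without siFOXF1/2 library 2 they were 4820 and 4130.

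Which regions were called depended on whether the local background was included. Fold enrichment divides the summit by the local background, and this had a median of 5.36 and 5.50 times the genome-wide level in the siFOXF1/2 libraries at regions ranked lower after siFOXF1/2. At those ranked higher it was 2.29 and 2.33. In the JUN-family libraries it was 2.55 and 2.85 at the regions ranked lower after siFOXF1/2 and 1.45 and 1.51 at those ranked higher. Ranks of the recovered summit pileup alone, an alternative added after these values were seen, gave 7200 higher (16.5%) and 7153 lower (16.4%). By pileup, Sen 1 and 2 against Sen 3 and 4 gave 307 higher (0.746%) and 429 lower (1.04%). Of the calls between the knockdowns by pileup, 3529 higher and 3364 lower calls were shared with the ranks of fold enrichment. The shared higher calls were 45.7% of the fold calls and 49.0% of the pileup calls, and the shared lower calls 41.6% and 47.0%. A further 71 and 233 fold calls were called in the opposite direction by pileup.

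The 8 regions with the largest rank gain after siFOXF1/2 stood between the 97.3rd and the 99.98th percentile in the siFOXF1/2 libraries and between the 2.94th and the 73.7th in the JUN-family libraries. At chr7:27086493-27087052 the fold enrichment was 24.1 and 23.1 in the siFOXF1/2 libraries and 4.90 and 5.98 in the JUN-family libraries. The Sen values were 22.4 and 21.8 in Sen 1 and 2 and 17.9 and 13.2 in Sen 3 and 4, so the siFOXF1/2 values lay just above the Sen range and the JUN-family values far below it. The normal-score difference was 4.16 (SE 0.242, limma adjusted p = 0.000385).

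At chr10:76559450-76560141 the siFOXF1/2 libraries had 22.5 and 24.01 and the JUN-family libraries 6.86 and 8.30. All 4 Sen libraries lay between 19.0 and 19.9 and the Pro libraries at 18.3 and 18.3, so the control values were much nearer those of siFOXF1/2. The difference was 3.19 (SE 0.266, limma adjusted p = 0.000954). chr3:49255865-49256506 had 22.7 and 24.9 in the siFOXF1/2 libraries against 5.88 and 5.31 in the JUN-family libraries, with Sen between 10.8 and 18.0. At chr1:206319171-206319742, which neither Pro list held, the values were 24.6 and 20.5 after siFOXF1/2 and 5.23 and 7.18 after JUN-family knockdown. All 8 were chosen for their difference between these libraries, so that their values do not overlap is no finding. All 8 were also called higher by ranks of pileup from the same libraries.

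The 8 regions with the largest rank loss after siFOXF1/2 stood between the 2.70th and the 47.9th percentile in the siFOXF1/2 libraries and at the 99.2nd or above in the JUN-family libraries. At chr9:67319659-67320919 the fold enrichment was 6.92 and 6.15 in the siFOXF1/2 libraries and 34.1 and 31.9 in the JUN-family libraries. Sen 1 and 2 were low as well, at 11.3 and 7.14, and Sen 3 and 4 higher, at 17.8 and 24.1. The difference was −4.81 (SE 0.237, limma adjusted p = 0.000223). chr11:51589027-51592952 had 9.41 and 5.13 in the siFOXF1/2 libraries and 36.4 and 32.7 in the JUN-family libraries, with 13.6 and 9.72 in Sen 1 and 2 and 30.4 and 37.8 in Sen 3 and 4. The controls of the JUN-family set were here as high as the JUN-family libraries.

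chr2:132996506-132998672 was the exception among the 8 in its controls. It had 6.92 and 4.78 in the siFOXF1/2 libraries and 18.6 and 18.6 in the JUN-family libraries, while Sen 1 and 2 stood at 10.5 and 8.29 and Sen 3 and 4 at 11.3 and 11.8. Its difference was −4.02 (SE 0.288, limma adjusted p = 0.000661). All 8 of these regions were wide, from 1247 to 3926 bp, and all were held by all 4 Sen and both Pro lists, but none was held by both single-end Sen lists. As background, those on chromosomes 4, 9, 10, 11 and 17 lie close to the centromeres, where repeated sequence makes the placing of short reads uncertain. The part of read placement in these values was not tested.

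**Figure D4:**
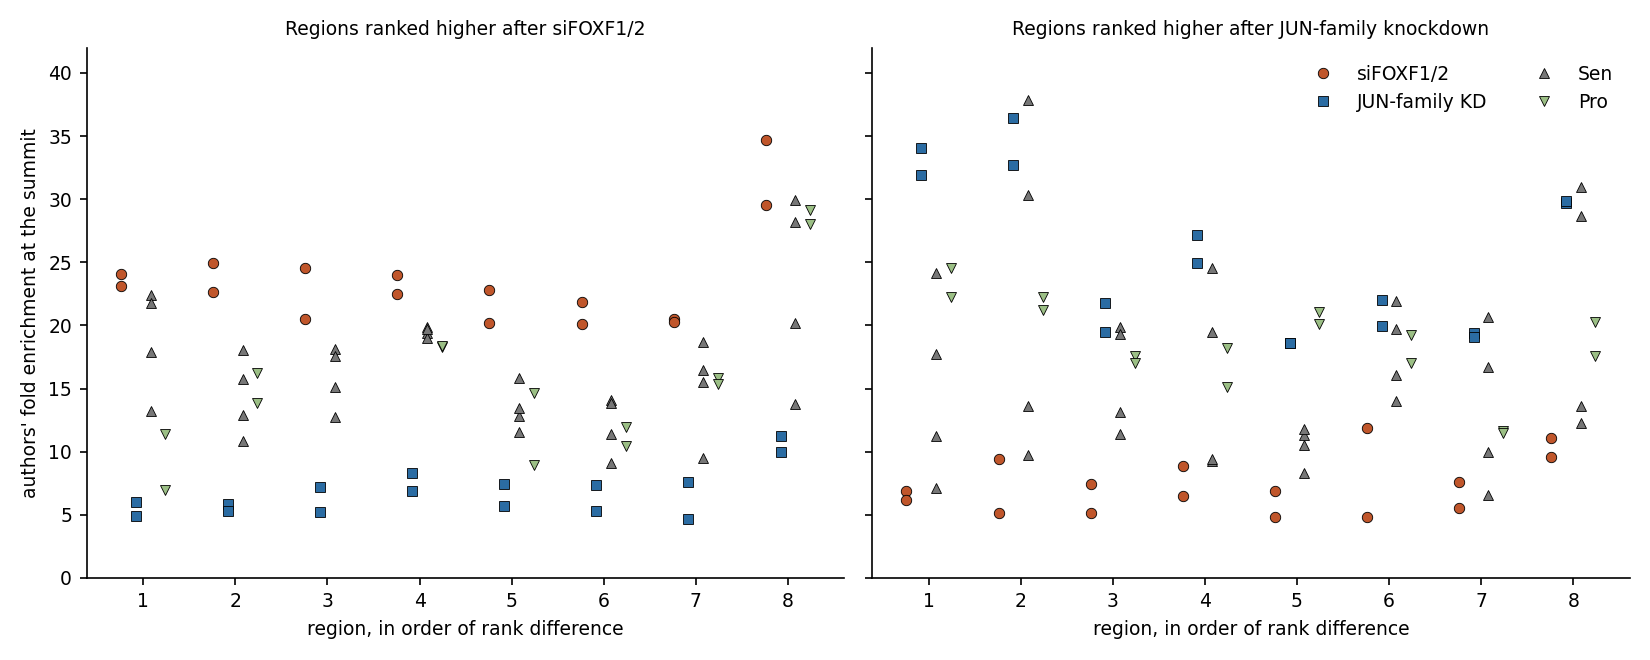
The authors' fold enrichment at the summit in each siFOXF1/2, JUN-family, Sen and Pro library (1 point each) for the 8 shared regions with the largest rank gain (left) and loss (right) after siFOXF1/2. On the left the siFOXF1/2 points lie at 20.1 to 34.7 above the JUN-family points at 4.65 to 11.3, and on the right the siFOXF1/2 points lie at 4.78 to 11.9 below the JUN-family points at 18.6 to 36.4.

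The senescent controls of each naming set were then subtracted from the knockdown of that set. Over the 41130 regions held by all 8 lists, the contrast of siFOXF1/2 minus Sen 1 and 2 against JUN-family knockdown minus Sen 3 and 4 called 1326 regions higher (3.22%) and 888 lower (2.16%) in limma. The median of the 1326 was a score difference of 1.61, made up of a siFOXF1/2 shift of 0.48 and a JUN-family shift of −1.15 against their own controls. For the 888 the median was −1.44, with a siFOXF1/2 shift of −0.58 and a JUN-family shift of 0.89. In the separate contrasts JUN-family knockdown against Sen 3 and 4 called 4421 regions higher (10.7%) and 4588 lower (11.2%), and siFOXF1/2 against Sen 1 and 2 called 1098 higher (2.67%) and 1251 lower (3.04%).

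These counts changed when 1 library was left out, which leaves 1 library in its group and fewer degrees of freedom. Without Sen 3 the subtracted contrast called 0 regions in either direction in limma, with a smallest adjusted p of 0.0505 and 7757 of 41130 regions at an unadjusted p under 0.05. Without Sen 4 it called 18 higher and 5 lower, without Sen 1 490 and 211, and without Sen 2 455 and 231. Without siFOXF1/2 library 1 it called 131 higher and 60 lower, without siFOXF1/2 library 2 559 and 343, and without JUN-family library 1 686 and 330. The median difference of the 1326 regions stayed between 1.56 and 1.64, and that of the 888 between −1.47 and −1.39, whichever of the 8 libraries was left out, in regions chosen with all 8. All 1326 and all 888 kept the sign of their difference in each of these fits. On log2 fold enrichment 1189 regions were called higher and 1463 lower, so the higher portion was 44.8%, against 59.9% on ranks of fold enrichment. By ranks of pileup 2223 regions were called higher and 2276 lower.

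Of the 8 regions with the largest direct gain after siFOXF1/2, 6 passed the subtracted contrast, and of the 8 with the largest direct loss 4 passed. All 16 kept the sign of the direct difference, which is no independent support, since they were chosen for its size and both contrasts use the same 4 knockdown libraries. At chr10:76559450-76560141 the subtracted difference was 2.74 (SE 0.332, limma adjusted p = 0.00736), and at chr2:132996506-132998672 it was −3.68 (SE 0.387, limma adjusted p = 0.00649). At chr11:51589027-51592952 it was −1.42 (SE 0.529, limma adjusted p = 0.127), and the difference Sen 1 and 2 minus Sen 3 and 4 alone was −3.35.

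Of the 1326 regions with the higher subtracted rank, the one with the largest difference was chr7:151024651-151025264, named here after its values were seen. Its fold enrichment was 21.5 and 18.7 in the siFOXF1/2 libraries and 5.88 and 7.97 in the JUN-family libraries. Sen 1 and 2 stood at 17.0 and 18.3 and Sen 3 and 4 at 21.0 and 22.7, all near the siFOXF1/2 values. On the other side chr1:74822204-74822561, also named after its values were seen, had 6.64 and 6.49 in the siFOXF1/2 libraries and 10.1 and 12.2 in the JUN-family libraries. Sen 1 and 2, at 13.3 and 12.3, lay above siFOXF1/2, and Sen 3 and 4, at 8.87 and 7.29, lay below the JUN-family libraries.

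The regions called by the direct rank contrast differed in libraries that the contrast did not use. Among called regions that both single-end Sen lists held, neither sip65 list held 22.7% of the 4559 ranked higher after siFOXF1/2 and 5.95% of the 5997 ranked lower (95% Wilson intervals 21.5% to 23.96% and 5.38% to 6.58%). By ranks of pileup these shares were 19.3% of 5069 and 11.3% of 4039. For the sip300/CBP lists they were 10.9% of the higher and 8.45% of the lower regions by fold enrichment, and 10.3% and 16.9% by pileup, the opposite order. Both Pro lists held 85.4% of the regions ranked higher after siFOXF1/2 and 91.3% of those ranked lower, and by pileup 87.3% and 83.1%, again in the opposite order.

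Ordered by the rank difference, shared regions showed a gradient in the sip65 lists. In the decile ranked highest after JUN-family knockdown, sip65 libraries 1 and 2 held 76.9% and 51.1% of regions, and in the decile ranked highest after siFOXF1/2 they held 53.4% and 16.9%. Single-end Sen libraries 1 and 2 held 72.6% and 82.1% in the first of these deciles and 64.5% and 73.5% in the last. Among regions called by fold enrichment, those ranked lower after siFOXF1/2 had the higher summits in both knockdowns. In the JUN-family libraries the median pileup was 32.8 and 38.8 times background at these, against 12.7 and 15.4 at those ranked higher. In the siFOXF1/2 libraries it was 56.6 and 57.1 against 40.9 and 42.6. The part of summit height and of the short sip65 lists in the sip65 shares was not tested. Peaks of the siFOXF1/2 libraries covered a median of 582 and 553 bp of a region in the first decile and 599 and 558 bp in the last. Peaks of the JUN-family libraries covered 489 and 448 bp in the first decile and 248 and 243 bp in the last.

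**Figure D5:**
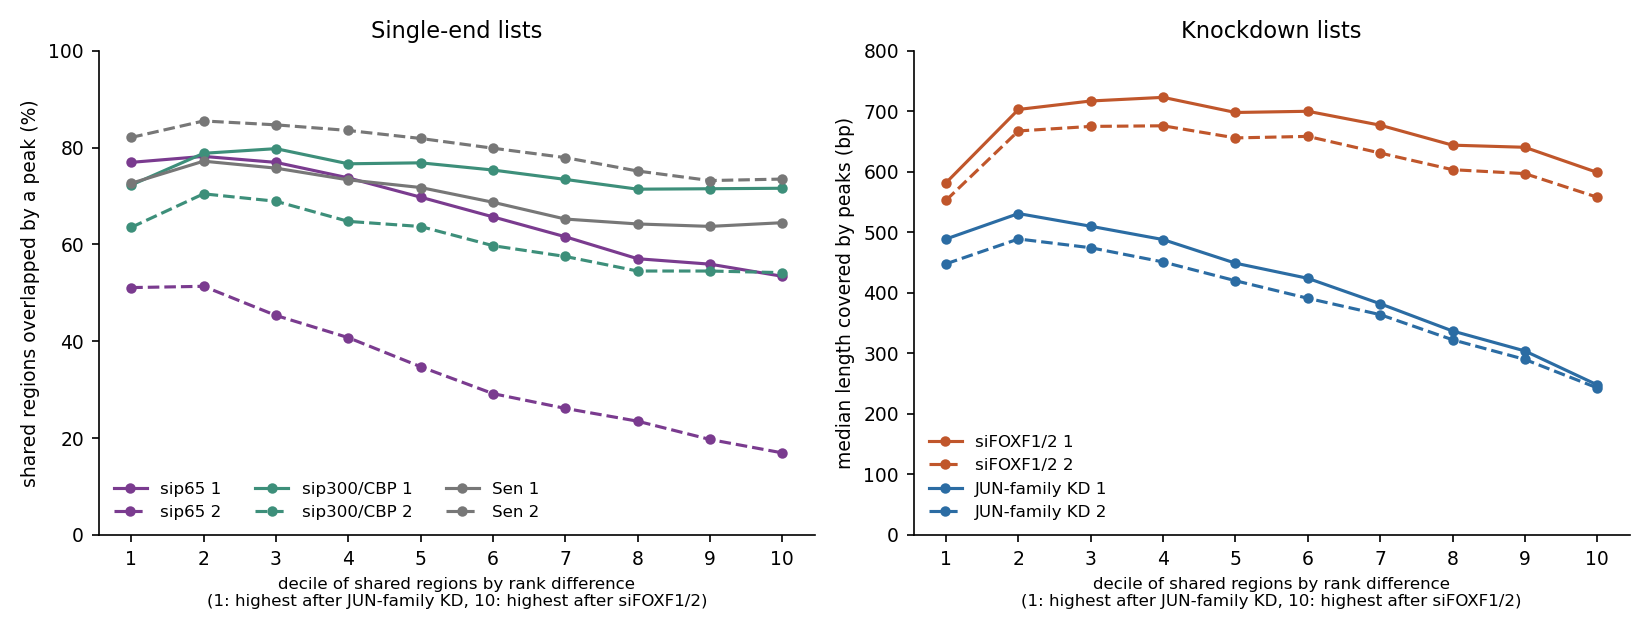
Shared regions in deciles of the rank difference, from highest after JUN-family knockdown (1) to highest after siFOXF1/2 (10). Left, share of regions (%) held by each single-end list; right, median length (bp) covered by peaks in each knockdown list. The sip65 lines fall to 53.4% and 16.9% in the last decile, and the JUN-family covered length falls to 248 and 243 bp.

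Rank correlations of fold enrichment over the 41130 regions describe how near the libraries stood. They were 0.929 between the siFOXF1/2 replicates, 0.896 between the JUN-family replicates, and 0.572 to 0.620 between the groups. The siFOXF1/2 libraries correlated at 0.810 to 0.869 with Sen 1 and 2, and at 0.744 to 0.805 with Sen 3 and 4. The JUN-family libraries correlated at 0.557 to 0.662 with Sen 1 and 2 and at 0.716 to 0.774 with Sen 3 and 4. Sen 1 and 2 correlated with Sen 3 and 4 at 0.834 to 0.900. All values come from the same regions, chosen for being held by every list.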

How the data were processed

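Peak lists of all 16 libraries were used as deposited, 1 list per library with coordinates on hg19. Per the submitters' processing notes, which give no role or order, the tools were MACS2 2.1.1, deepTools 3.1.1, SAMtools 1.9 and Bowtie2 2.3.4.1. Caller settings and read shifting were not found in the sources used here, and names of peaks in all 6 single-end lists, unlike the paired-end ones, carry a duplicate-removal tag. Each list holds the authors' fold enrichment ratio (summit over local background), a p-value and a q-value as −log10, a deposited score that repeats −log10 q and was not used, and the summit position. No −log10 q was below 4, per the deposited values.

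Lists were merged and compared in Python 3.11.15 and checked against bedtools 2.31.1. Summit pileup and local background were recovered from the deposited fold and −log10 p, with whole pileups for 100% of paired-end peaks. The 1st percentile of local background stood for the genome-wide background. The detection floor is the smallest pileup that reaches the lowest listed p, and a bound built on it leaves out the minimum length of a peak. Ranks were compared with limma 3.58.1. The script was tested on simulated data with shifts above 1.09, the median absolute score difference of the called regions. That simulation replaced an earlier one with other spreads and smaller shifts, in which no shifted region was recovered. How many differences of the median size are found was therefore not tested. The samples and comparison, and the lists of named regions, were chosen with earlier results of these data known. Named regions are the 8 of each one-knockdown class with the highest lower −log10 q, the 8 shared regions in each direction with the largest score difference past an adjusted p of 0.05, and the 5 windows of 500 kb richest in each class. Exceptions are marked in the text. The floor at local background, the local background limit of 5, the ranks of pileup and the left-out Sen libraries were chosen after seeing the data.

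Gene names, start sites and motifs need an hg19 annotation and sequence and were not analysed here. Libraries were not paired by replicate number in the main contrasts. Peak names in the siFOXF1/2 set number Pro, Sen and siFOXF1/2 of replicate 1 in a row, then those of replicate 2. Whether the libraries of a replicate number were prepared together is not in the labels. Samples were grouped by their labels.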

Additional observations from a re-analysis of the deposited data

Results flagged for a closer look

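The shift of a region's rank against the matched senescent controls differed between the knockdowns, by the interaction test in limma, at 1326 regions that moved higher with siFOXF1/2 and at 888 that moved lower. Of the 1326 regions, 1288 were also called in the direct contrast in the same direction, and of the 888, 844 were, which is no independent support since both contrasts use the same knockdown libraries. The siFOXF1/2 and JUN-family shifts had opposite signs at 1087 of the 1326 and at 777 of the 888. Regions chosen by the difference of these shifts favour opposite signs, so this is no separate finding. The share over all 41130 regions is not given. JUN-family knockdown against Sen 3 and 4 passed at 1034 of the 1326 and 592 of the 888 regions. siFOXF1/2 against Sen 1 and 2 passed at 262 and 266, and a region could pass both. Over all 41130 regions, JUN-family knockdown passed at 10.7% in the higher and 11.2% in the lower direction, and siFOXF1/2 at 2.67% and 3.04%. The subtracted contrast contains both shifts, so its choice of regions favours such passes. The call was not kept without Sen 3, where 1 library is left in its group, as given above. All 1326 and all 888 regions kept the sign of their difference there, in regions chosen with all 8 libraries.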

How the results depend on the processing

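With a −log10 q of at least 20, JUN-family-only regions numbered 2352, and lists of equal length gave 11987 siFOXF1/2-only and 10990 JUN-family-only regions. The planned 2-fold bound left 2843 JUN-family-only regions scaled by background and 11286 siFOXF1/2-only regions scaled on shared regions. With the floor at local background it left 21970 siFOXF1/2-only and 1369 JUN-family-only regions scaled by background, and 2356 siFOXF1/2-only regions scaled on shared regions. The causes of these moves were not tested beyond the construction of each alternative, which shortens the lists or raises the bar. Regions held by both controls of the other naming set numbered 17983 and 923. Leaving out 1 library gave 41170 to 51141 siFOXF1/2-only and 6071 to 8143 JUN-family-only regions. The siFOXF1/2-only share in all 4 Sen lists was 54.8% for a −log10 q of at least 20 in both holding lists and 64.7% with lists of equal length, and the JUN-family-only share was 44.996% with lists of equal length.

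For ranks at shared regions, a −log10 q of at least 20 in all lists left 4762 higher and 4898 lower calls among fewer regions. Leaving out 1 library gave 4820 to 7528 higher and 4130 to 7738 lower calls. With the senescent controls subtracted, leaving out 1 library gave 0 to 1452 higher and 0 to 832 lower calls, log2 fold enrichment gave 1463 lower calls, and ranks of pileup 2223 higher and 2276 lower. With fewer libraries the fit has fewer degrees of freedom. Deviations of same-numbered libraries from their group means correlated with r of 0.0369 between siFOXF1/2 and JUN-family libraries. The r was 0.0606 between siFOXF1/2 and Sen 1 and 2, and −0.0216 between JUN-family libraries and Sen 3 and 4. A low r cannot show that same-numbered libraries were unpaired. With the replicate block the direct contrast called 8078 higher and 8230 lower, and the subtracted contrast 1213 and 717. The 16 named shared regions kept direction and side of the threshold in the direct contrast under every alternative, except that 14 of them were not in the set with a −log10 q of at least 20. Without regions of high local background, 4 of the 8 strongest siFOXF1/2-only and 5 of the 8 strongest JUN-family-only regions remained, and without regions that set the Sen pairs apart 4 of the JUN-family-only ones did.

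Depth is known only through background coverage, a floor of 11 to 15 fragments hides weaker peaks, and groups of 2 cannot reach an exact p under 0.333.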
